A study of Mus musculus with 6 samples.

Results

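Expression of 9 genes that mark the passage from oligodendrocyte precursor to newly formed oligodendrocyte was followed across the oligodendrocyte lineage of the mouse hypothalamus. The genes were Pdgfra, Cspg4, Bmp4, Gpr17, Neu4, Enpp6, Bcas1, Fyn and Itpr2, and they were taken by symbol from the 16411 genes listed in the deposited table. All 9 were found, and all 9 passed the filter on low counts. For each mouse, the UMIs of a gene (unique molecular identifiers, which count captured RNA molecules) were summed over the cells that carry the authors' labels OPC, COP and Olig, and were expressed as CPM, that is per 1000000 UMIs of the same sum.

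Oligodendrocyte precursor cells (OPC) divide and migrate in the adult brain, and they depend on platelet-derived growth factor read by its receptor PDGFRA; NG2, the product of Cspg4, is the other classic surface marker of this stage. A precursor that leaves the cell cycle becomes a committed precursor (COP), in which the receptor genes are switched off and the G protein-coupled receptor gene Gpr17 is transiently switched on. Newly formed oligodendrocytes then assemble myelin proteins and extend sheaths, and Enpp6, Bcas1, Fyn and Itpr2 are known markers of that step. Mature oligodendrocytes (Olig) keep the myelin genes and lose most of the transient ones.

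All mice were male ob/ob animals, which lack leptin and are obese and diabetic, of 11 weeks of age. Each received 3 µg of FGF1 R50E, a form of the growth factor FGF1 whose binding to integrin is impaired, into a cerebral ventricle and was killed at day 5, and 10x Chromium 3' v2 libraries were made from the dissociated hypothalamus of 1 mouse each. The labels give 6 mice of this 1 group, of which mice 3, 4, 30 and 34 had cells in the table, while mice 12 and 37 had none and were not analysed here. There was no other labelled group, so comparisons were made between cell types within the same 4 mice, and nothing below is an effect of the treatment.

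The 4 libraries held 3005 to 7386 cells and 3299971 to 8856079 UMIs each, and every pair of libraries shared between 18 and 66 cell barcodes. Mice 3, 4, 30 and 34 had 386, 242, 267 and 366 OPC, then 208, 196, 161 and 116 COP, then 1668, 865, 473 and 1560 Olig. Median UMIs per COP were 2402.5, 1219.5, 1081 and 2342.5, so that mice 3 and 34 were the deeper ones, against 765 to 1154 per OPC and 894 to 1304.5 per Olig. COP also differed from both neighbours in the median percent of mitochondrial UMIs, at 7.44 to 9.33 against 11.2 to 13.7 in OPC and 12.3 to 15.2 in Olig, and the part of this in the results was not tested. Of 6 OPC markers that are not among the 9 genes (Ptprz1, Vcan, Lhfpl3, C1ql1, Matn4, Cacng4), the summed level was 4413 CPM in OPC, 1033 CPM in COP and 196 CPM in Olig. Of 6 Olig markers (Mog, Mag, Mobp, Cldn11, Opalin, Ermn), it was 485, 2496 and 11292 CPM, so the OPC set was highest in OPC and the Olig set in Olig, with COP between. The summed level of 6 astrocyte markers moved with the labels too, at 2264, 867 and 1563 CPM, and its part in the results was not tested.

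On the GRCm38 build (GENCODE vM21), Pdgfra lies at chr5:75152292-75198215 on the plus strand, Cspg4 at chr9:56865033-56899870 (plus), Bmp4 at chr14:46383520-46390669 (minus) and Neu4 at chr1:94020451-94028334 (plus). Enpp6 lies at chr8:46986887-47096762 (plus), Bcas1 at chr2:170346991-170427845 (minus), Fyn at chr10:39368855-39565381 (plus) and Itpr2 at chr6:146108299-146502223 (minus). Promoter windows of 250 bases before the start were at hand for 7 of the genes from RefSeq (GRCm38.p6), not including Gpr17 and Bcas1. The windows of Bmp4, Enpp6 and Itpr2 are shown because these 3 genes rose together in COP and their windows lie wholly before the annotated gene. They span chr14:46390670-46390919 (minus strand), chr8:46986637-46986886 (plus) and chr6:146502224-146502473 (minus), and capitals mark matches to the letters CCCGCCC (a motif of the SP/KLF family, in Bmp4 and Itpr2) or CATTGT (a SOX motif, in Enpp6), on either strand.
Bmp4: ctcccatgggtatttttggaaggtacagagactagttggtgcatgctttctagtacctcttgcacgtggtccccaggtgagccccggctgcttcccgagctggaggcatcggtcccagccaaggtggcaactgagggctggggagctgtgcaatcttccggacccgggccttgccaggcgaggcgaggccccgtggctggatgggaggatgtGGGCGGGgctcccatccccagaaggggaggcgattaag
Enpp6: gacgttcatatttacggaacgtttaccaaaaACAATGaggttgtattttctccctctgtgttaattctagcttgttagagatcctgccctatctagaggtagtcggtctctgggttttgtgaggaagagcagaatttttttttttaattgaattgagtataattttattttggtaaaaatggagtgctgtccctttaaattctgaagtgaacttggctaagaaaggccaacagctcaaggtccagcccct
Itpr2: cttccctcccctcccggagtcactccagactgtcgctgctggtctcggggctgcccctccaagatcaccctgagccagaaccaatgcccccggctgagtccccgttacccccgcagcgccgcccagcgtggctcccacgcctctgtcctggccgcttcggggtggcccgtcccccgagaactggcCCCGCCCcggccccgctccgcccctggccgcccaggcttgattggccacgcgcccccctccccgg
The match lay 38 bases before the start in Bmp4, 219 in Enpp6 and 65 in Itpr2. Across 32851 windows, CCCGCCC was present in 23.4% and CATTGT in 10.7%; among the 7 genes, 4 held CCCGCCC (Cspg4, Bmp4, Fyn and Itpr2) and 1 held CATTGT. A TCF/LEF motif, CTTTGAT, was found in Fyn and in 3.21% of all windows. The E-box CAGCTG (in 13.0% of all windows), a further E-box spelled CATATG (in 3.46% of them) and the TATA box TATAAA (in 12.4% of them) were found in none of the 7. All motifs were searched on both strands, and no matches overlapped. The windows were unlike in base composition, with 63.2% G and C in Bmp4, 38.4% in Enpp6 and 74.4% in Itpr2 against a median of 52.4%.

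The first question was where along OPC, COP and Olig each gene stood. The precursor receptors Pdgfra and Cspg4 were high in OPC and low from COP onwards. Pdgfra stood at 1167, 1267, 1401 and 1202 CPM in the OPC of mice 3, 4, 30 and 34, and at 14.0, 10.2, 23.9 and 3.6 CPM in their COP. The lowest OPC value lay far above the highest COP value, and the log2 fold change of COP against OPC was -6.51 ± 0.19 (SE, edgeR's quasi-likelihood test with the mouse as block, Benjamini-Hochberg adjusted p = 3.07e-40 over 7108 genes, lower in 4 of 4 mice). In Olig, Pdgfra stood at 7.8, 21.8, 18.5 and 7.6 CPM, within the range of COP. The difference between Olig and COP was 0.19 ± 0.41 on the log2 scale (adjusted p = 0.721), positive in mice 4 and 34 and negative in mice 3 and 30, and its sign turned with the scaling and without mouse 4. Summed over mice, the 681 COP held 16 Pdgfra UMIs against 1696 in the 1261 OPC, a level 98.7 times lower, and the ratio of COP to Olig was 1.12 (95% exact interval 0.602 to 1.95, counting error only).

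Cspg4, which encodes the proteoglycan NG2, fell in 2 steps. It stood at 423, 353, 331 and 376 CPM in OPC, at 22.1, 27.2, 14.4 and 18.1 CPM in COP and at 1.7, 9.5, 6.2 and 2.2 CPM in Olig of mice 3, 4, 30 and 34. No mouse of one type overlapped with the next. The log2 fold change was -4.06 ± 0.21 from OPC to COP (adjusted p = 3.24e-26) and -2.16 ± 0.44 from COP to Olig (adjusted p = 2.35e-05, 27 UMIs in COP and 21 in Olig). Unlike Pdgfra, Cspg4 was lower in Olig than in COP in 4 of 4 mice, although the COP value rested on 3 to 11 UMIs per mouse. Both genes passed the filter only through OPC, where they were high. In a fit of COP and Olig alone, neither was tested.

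**Figure D1:**
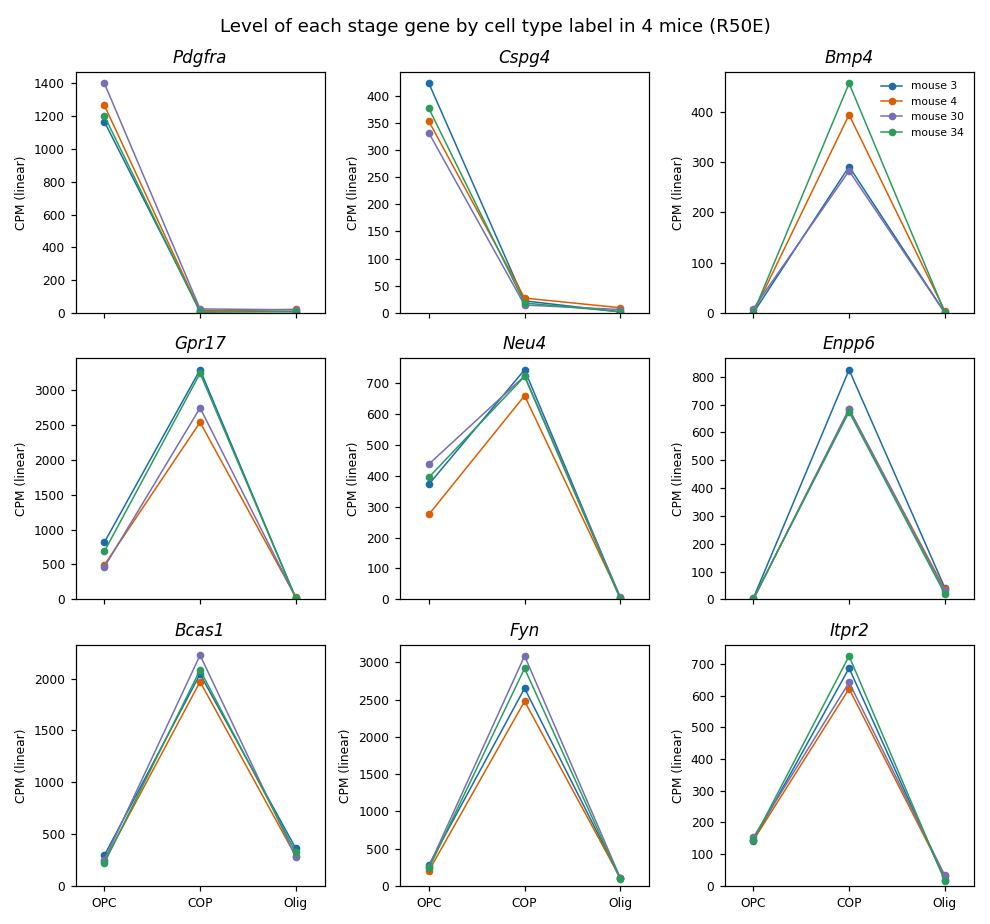
Level of each of the 9 genes in the summed OPC, COP and Olig of each mouse (y axes: CPM, linear, each panel with its own scale; 1 line per mouse). Pdgfra and Cspg4 are highest in OPC in all 4 mice, and the other 7 genes are highest in COP in all 4 mice.

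Bmp4, Gpr17 and Neu4, the genes of the commitment step, were all highest in COP but differed in how far they were already present in OPC. Bmp4 encodes a secreted ligand of the BMP family, which is known to hold precursors back from myelination. It stood at 291, 394, 282 and 456 CPM in COP, at 0, 0, 8.5 and 0 CPM in OPC and at 0.4, 3.8, 0 and 1.1 CPM in Olig. All of OPC held 2 Bmp4 UMIs, both in mouse 30, and all of Olig held 7, whereas COP held 446. A count of 3 UMIs would correspond to 6.57 to 12.7 CPM in the OPC of a mouse. The pooled level of COP was 239 times that of OPC (95% exact interval 65.9 to 1983) and 285 times that of Olig (137 to 712). With so few UMIs outside COP, the fitted log2 fold changes of 7.84 ± 0.34 against OPC and -7.71 ± 0.25 for Olig against COP depend on the prior count, and both passed the test (adjusted p = 1.57e-30 and 6.63e-39). The first was 11.08 without mouse 30, which held both OPC UMIs, and 7.13 without mouse 34.

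Gpr17 encodes a receptor that marks committed cells and restrains their maturation. It was present in OPC at 817, 492, 463 and 686 CPM, rose to 3289, 2536, 2742 and 3238 CPM in COP and was 17.7, 30.3, 22.6 and 17.3 CPM in Olig. Mice 3 and 34 were the 2 highest in both OPC and COP, and the groups did not overlap. The log2 fold change was 2.35 ± 0.095 from OPC to COP (adjusted p = 1.41e-32) and -6.92 ± 0.13 from COP to Olig (adjusted p = 3.36e-52). Exons of Gpr17 overlap those of Lims2 on the other strand, and the sources used here do not state whether counting used strand, so reads of the pair cannot be told apart where it did not. Lims2 itself stood at 202, 1254 and 53.1 CPM in OPC, COP and Olig, the same order as Gpr17.

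Neu4, a sialidase, showed the smallest log2 fold change of the 9 genes between OPC and COP. Its levels were 372, 275, 437 and 395 CPM in OPC and 742, 659, 723 and 721 CPM in COP. All 4 COP values lay above all 4 OPC values. The log2 fold change was 1.05 ± 0.11 (adjusted p = 3.54e-13), just past the limit of 1 used for a call, and it was 0.97 both without mouse 3 and without mouse 4, on the other side of that limit. In Olig, Neu4 had nearly gone, with 3.9, 5.7, 8.2 and 1.1 CPM and a log2 fold change against COP of -7.23 ± 0.18 (adjusted p = 2.96e-45). Neu4 in Olig lay far below OPC as well, at -6.18 ± 0.20.

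The 4 genes of newly formed oligodendrocytes also peaked in COP. Enpp6, a choline phosphodiesterase, was close to absent from OPC, with 825, 682, 684 and 674 CPM in COP and 4.4, 0, 0 and 2.3 CPM in OPC. Only 3 Enpp6 UMIs were found in all OPC against 941 in COP, a ratio of 337 (95% exact interval 115 to 1636). In Olig it stood at 41.4, 36, 28.8 and 19.5 CPM, above all OPC values and below all COP values. The log2 fold changes were 8.34 ± 0.26 from OPC to COP (adjusted p = 1.25e-38, depending on the prior count) and -4.21 ± 0.12 from COP to Olig (adjusted p = 4.65e-41). Mouse 3 had the highest level of the 4 in both COP and Olig.

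Bcas1, which encodes a protein of myelinating processes, rose from 293, 238, 251 and 220.3 CPM in OPC to 2043, 1969, 2225 and 2083 CPM in COP. It returned to 360, 285, 278 and 322 CPM in Olig. The COP values stood clear of both other types, while OPC and Olig overlapped. The log2 fold change was 3.15 ± 0.10 from OPC to COP (adjusted p = 3.75e-38) and -2.42 ± 0.084 from COP to Olig (adjusted p = 1.15e-36). Bcas1os1, an antisense gene that overlaps Bcas1, had no UMI in the 3 types.

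Fyn, a Src-family kinase that is known to act in myelination, rose from 278, 201, 259 and 234 CPM in OPC to 2653, 2479, 3087 and 2919.7 CPM in COP and stood at 102, 103, 107 and 85.1 CPM in Olig. None of the 3 types overlapped. The first step was 3.59 ± 0.098 (adjusted p = 3.20e-42) and the second -4.51 ± 0.094 (adjusted p = 2.68e-49) on the log2 scale. Itpr2, a receptor that releases calcium from the endoplasmic reticulum, followed the same course with 142, 143, 153 and 145 CPM in OPC, 686, 621, 641 and 724 CPM in COP and 19.4, 29.4, 32.9 and 16.3 CPM in Olig. Its levels hardly varied between mice in OPC (SD 4.79 CPM, n = 4). The steps were 2.3 ± 0.12 (adjusted p = 8.42e-26) and -4.64 ± 0.13 (adjusted p = 1.15e-41).

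Counted together, 7 of the 9 genes were called higher in COP than in OPC and 2 were called lower, where a call needed a log2 fold change beyond 1 in size together with an adjusted p under 0.05. Of all 7108 tested genes, 23.9% were called in that contrast, 10.2% higher and 13.7% lower. From COP to Olig, 8 of the 9 were called lower and none higher, against 26.7% of all genes called, 13.1% lower and 13.5% higher. Cspg4, 1 of these 8, passed the filter only through OPC. By the adjusted p alone, 9 of the 9 passed from OPC to COP (39.9% of all genes) and 8 from COP to Olig (51.9%). The CPM of the 4 mice did not overlap for any of the 9 between OPC and COP, as for 14% of all genes on the higher and 19% on the lower side, and for 8 of the 9 between COP and Olig, as for 28.9% of all genes on the lower side. The 7 genes other than Pdgfra and Cspg4 were called higher in COP against both neighbours, as were 5.28% of all genes. The types were named by the authors from expression over the same counts, and these genes are known markers, so the calls describe how the labels separate the cells. The scaling of the sums matters to the split of calls over all genes: with library totals alone in place of TMM factors, 35.6% instead of 42.7% of the calls in COP against OPC were higher in COP, and 32.8% instead of 50.8% in Olig against COP were higher in Olig, with the median gene at -0.12 and -0.29. Neu4 was the single gene of the 9 whose call between OPC and COP was lost without TMM factors, at 0.92.

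Between the ends of the series, Olig against OPC, 27.1% of all genes were called, 12.2% higher and 14.9% lower. Of the 9 genes, Pdgfra (-6.31 ± 0.14), Cspg4 (-6.23 ± 0.20), Neu4, Gpr17 (-4.57 ± 0.14) and Itpr2 (-2.33 ± 0.18) were called lower, and Enpp6 (4.12 ± 0.48, adjusted p = 1.92e-11) was the single gene called higher. Enpp6, with 3 UMIs in OPC, and Bmp4 passed the filter only through COP, where they were high. In a fit of Olig and OPC alone, neither was tested. Fyn differed by -0.92 ± 0.12 (adjusted p = 9.41e-10) and Bcas1 by 0.73 ± 0.11 (adjusted p = 2.21e-08), both short of the limit of 1; by the adjusted p alone 8 of the 9 passed, as did 52.3% of all genes. Without TMM factors Fyn was past the limit at -1.35, and the split of all calls fell from 44.9% to 25.7% higher in Olig, with the median gene at -0.44. Bmp4 showed no detectable difference at this depth, at 0.13 ± 1.04 (adjusted p = 0.932).

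The next question was how many single cells carried each gene. Pdgfra was detected (at least 1 UMI) in 73.1%, 68.2%, 64.8% and 74.3% of OPC in mice 3, 4, 30 and 34, and in 1.82% ± 0.77 of COP and 1.24% ± 0.37 of Olig (SD, n = 4 throughout). In ependymal cells, which should lack it, the share was 0.757% ± 0.52 with a median of 974.5 to 1266 UMIs per cell. After each cell was thinned to 500 UMIs, 46.8% of OPC but 0.470% of COP and 0.572% of Olig held Pdgfra. The share in COP thus lay within the 0.306% to 0.984% found in astrocytes, tanycytes, ependymal cells, endothelial cells and microglia. Cspg4 was detected in 31.2% ± 6.8 of OPC, 3.67% ± 1.4 of COP and 0.514% ± 0.33 of Olig, and thinned to 16.9%, 1.14% and 0.219%, with 0.0585% in ependymal cells, 0.661% in microglia and 3.70% in endothelial cells, the last above COP.

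Among COP, Fyn was detected in 95.9% ± 4.0 of cells, Bcas1 in 92.3% ± 6.1 and Gpr17 in 92.2% ± 5.1. Itpr2 (66.2% ± 9.9), Enpp6 (66.0% ± 12.6) and Neu4 (63.0% ± 14.3) were found in fewer cells, and Bmp4 in 45.2%, 37.8%, 26.1% and 56.0% of the COP of mice 3, 4, 30 and 34. For each of these 7 genes, mice 3 and 34, whose COP were deeper, had the 2 highest shares. At 500 UMIs per cell the spread between mice narrowed for Enpp6 to 29.6% ± 2.2, for Neu4 to 28.7% ± 2.3 and for Itpr2 to 29.1% ± 0.71. Bmp4 came to 15.6% ± 3.6 at that depth, Gpr17 to 70.2% ± 3.8, Bcas1 to 63.0% ± 3.0 and Fyn to 73.4% ± 3.7. The thinned values leave out only 1 cell of the 3 types, an OPC with fewer UMIs.

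In OPC, Gpr17 was already detected in 56.0%, 33.9%, 34.5% and 50.8% of cells, and in 24.9% ± 5.6 at 500 UMIs, with a mean of 1.5 UMIs per positive cell against 6.14 in COP. Neu4 was detected in 30.7% ± 5.2 of OPC, Bcas1 in 22.6% ± 4.3, Fyn in 21.8% ± 5.0 and Itpr2 in 14.0% ± 1.5. At 500 UMIs these were 16.5%, 12.2%, 11.3% and 7.17%, against 0.129%, 5.60%, 3.02% and 0.722% in ependymal cells. Other types came nearer to OPC. Itpr2 was in 5.999% of microglia (3.48% to 9.58% by mouse) and 5.09% of endothelial cells (3.35% to 6.94%), both overlapping with OPC (6.66% to 7.75%). Bcas1 was in 8.96% of microglia (6.44% to 14.9%, overlapping with OPC at 10.7% to 14.4%) and 8.10% of astrocytes, and Fyn in 6.2% of astrocytes. Gpr17 was in 0.337% of ependymal cells and in at most 0.823% (endothelial cells) of the 5 types named above. Bmp4 was detected in 2 and Enpp6 in 3 of the 1261 OPC. In Olig, Bcas1 was detected in 30.2% ± 6.7 and Fyn in 11.0% ± 1.5 of cells, while Enpp6 (3.47% ± 1.4), Itpr2 (2.77% ± 0.68), Gpr17 (2.00% ± 0.16), Neu4 (0.552%) and Bmp4 (0.163%) were rare.

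**Figure D2:**
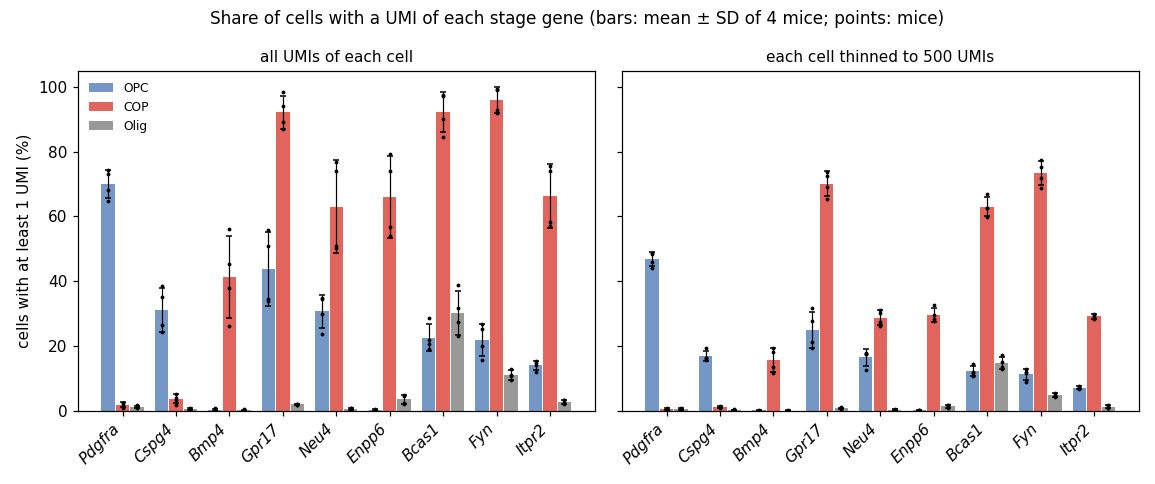
Percent of OPC, COP and Olig with at least 1 UMI of each of the 9 genes, for all UMIs (left) and after each cell was thinned to 500 UMIs (right). Bars are means over 4 mice, error bars the SD and points the mice; the shares of COP fall at equal depth, while COP stays above OPC for the 7 genes other than Pdgfra and Cspg4; Pdgfra is 1.82% in COP and 1.24% in Olig with all UMIs but 0.470% and 0.572% at 500.

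Counted over all 9 genes, a COP held 5.77, 4.76, 4.61 and 5.76 of them on average in mice 3, 4, 30 and 34, an OPC 2.73, 2.02, 2.05 and 2.58. Means over mice were 2.35 ± 0.36 in OPC, 5.22 ± 0.63 in COP and 0.519 ± 0.080 in Olig, and 1.36, 3.11 and 0.240 at 500 UMIs. All 7 genes that peaked in COP were found together in 22.6%, 10.2%, 6.83% and 25% of COP and in no OPC or Olig. The deeper mice 3 and 34 were again the higher ones.

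Whether early and late genes occur in the same committed cell was asked with Pdgfra or Cspg4 as the early set and Enpp6 or Itpr2 as the late set. Of 681 COP, 38 held an early gene, 587 held a late gene (86.2%) and 37 held both (5.43%, 95% exact interval 3.85 to 7.41). By mouse, both sets were found in 15 of 208, 10 of 196, 7 of 161 and 5 of 116 COP, or 7.21%, 5.10%, 4.35% and 4.31%. Only 1 COP, in mouse 4, held an early gene without a late one. The share with both was 1.05, 1.13, 1.31 and 1.08 times the product of the separate shares in mice 3, 4, 30 and 34, and 1.05, 1.06, 1.18 and 1.10 times within 3 equal classes of each mouse's UMI totals. In mice 3, 30 and 34, where no COP held an early gene alone, the ratio is the highest that the share with a late gene allows, and it adds nothing to that count.

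The early genes were themselves rare at equal depth. At 500 UMIs an early gene was found in 1.60% of COP, against 0.739% of Olig, 0.365% of ependymal cells, 0.708% of astrocytes, 0.720% of tanycytes, 1.5% of microglia and 4.38% of endothelial cells. The 37 COP with both sets had a median of 2145 UMIs against 1932.5 in the 550 with a late gene alone and 999 in the 93 with neither. Of the 37, 7 lay among the tenth of all cells with the highest deposited doublet scores, as did 55 of the 550. Their summed myelin genes (18 listed genes, Mbp to Qdpr) stood at 32510.0 CPM and their precursor genes (15 listed genes other than the 9) at 6234 CPM, against 38901 and 5333 CPM in COP with a late gene alone. By mouse the myelin sum was lower in the cells with both in 4 of 4 mice, at 32356, 29644, 40480 and 29832 CPM against 39314, 41658, 41175 and 34149.7 CPM; the precursor sum was higher in 3 of 4 mice and lower in mouse 34 (4861 against 5156 CPM). With 5 to 15 cells per mouse neither was tested.

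The same pairs were counted in the neighbouring types. Among OPC, 142 cells held an early and a late gene (11.3%), which was 0.978, 0.984, 0.946 and 0.968 times the product of the shares; these ratios were not tested. All but 3 late UMIs in OPC were of Itpr2. Among Olig, 8 of 4566 cells held both, with 5, 2, 1 and 0 cells in mice 3, 4, 30 and 34. This was 3.39, 1.40, 1.88 and 0 times the product of the shares, on few cells and likewise not tested.

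**Figure D3:**
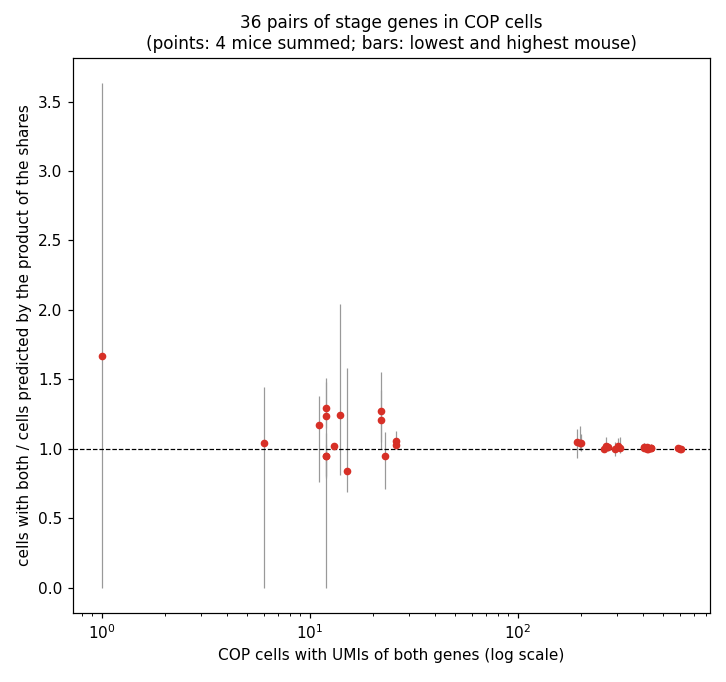
The 36 pairs of the 9 genes in COP: cells with UMIs of both genes (x axis, log scale) against the ratio of that number to the number given by the product of the shares within 3 equal classes of the UMI total (y axis, linear). Points are sums over 4 mice and bars run from the lowest to the highest mouse. Pairs with over 100 cells lie close to 1, where high shares hold those with Gpr17, Bcas1 or Fyn, and pairs with Pdgfra or Cspg4 scatter.

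Among the 7 genes that peaked in COP, no pair departed far from the product of its shares. Bmp4 with Neu4 was the highest at 1.04 (193 cells, 0.933 to 1.14 by mouse) and Bcas1 with Itpr2 the lowest at 0.996 (417 cells, 0.977 to 1.01 by mouse). Since Gpr17, Bcas1 and Fyn were found in 92.2%, 92.3% and 95.9% of COP, the ratio of any pair with these genes is held near 1. Such pairs cannot show whether the genes occur independently. Of the pairs among Bmp4, Neu4, Enpp6 and Itpr2, Neu4 with Itpr2 was the lowest at 0.997 (292 cells, 0.948 to 1.05 by mouse). Bmp4 and Enpp6, which mark the start and the end of the step, were found together in 201 COP, where the product gives 194 (ratio 1.04). Beyond these, 74 COP held Bmp4 alone, 248 Enpp6 alone and 158 neither. COP with Bmp4 and COP with Enpp6 were thus not separate cells at this depth.

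A graded difference was present in the myelin genes. COP with a Bmp4 UMI had a lower summed myelin level than COP without, by -0.14 ± 0.059 on the log2 scale (mean ± SD over 4 mice), and COP with Neu4 by -0.20 ± 0.068, each in 4 of 4 mice. The sum was also lower with Gpr17 (-0.38 ± 0.098) and with Bcas1 (-0.18 ± 0.13) in 4 of 4 mice, although only 3, 21, 21 and 7 COP lacked Gpr17 and 6, 30, 16 and 3 lacked Bcas1 in mice 3, 4, 30 and 34, and the Bcas1 difference of -0.38 in mouse 34 rests on 3 cells. COP with Enpp6 had a higher level, by 0.12 ± 0.038, in 4 of 4 mice, and COP with Itpr2 were higher in 2 of 4. For Fyn no direction is given, since only 1, 14, 13 and 1 COP lacked it. In mice 3, 4, 30 and 34, the myelin sum was 36116, 34243, 37958 and 25288 CPM in COP with Bmp4 alone and 40191, 42343, 44864 and 37588 CPM in COP with Enpp6 alone. COP with both genes had 37225, 39989.5, 37242 and 33636 CPM, which lay between the other classes in mice 3, 4 and 34 but below both in mouse 30. Pooled, the sum was 33639.6 CPM with Bmp4 alone, 36758 with both, 40972 with Enpp6 alone and 38111 with neither, with medians of 1499.5, 2377, 1734.5 and 1174 UMIs per cell. The 4 mice allow no exact sign test below 0.05, and the part of depth was not tested.

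Within OPC, Gpr17 did not single out cells low in Pdgfra. Of the 1261 OPC, 429 held both, 1.01 times the product (0.994 to 1.06 by mouse), 463 held Pdgfra alone and 147 Gpr17 alone. The summed precursor genes were 9583, 8838, 9874 and 9426 CPM in OPC with both and 9520.2, 10082, 10268 and 9385 CPM with Pdgfra alone in mice 3, 4, 30 and 34, with no common order. Gpr17 and Neu4 shared 210 OPC, 1.07 times the product (0.965 to 1.11 by mouse), and Cspg4 and Neu4 shared 155, 1.15 times (1.09 to 1.25 by mouse). Pdgfra and Neu4 went the other way, with 274 OPC and 0.943 times the product (0.911 to 0.977 by mouse).

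Within Olig, Gpr17 was detected in 91 and Enpp6 in 164 of 4566 cells, and 1 cell held both. Olig with Gpr17 had 1.24 ± 0.32 log2 more of the summed commitment genes (18 listed genes such as Tcf7l2, Sox4 and Sirt2, of which 16 were in the file) and 0.84 ± 0.24 more of the precursor genes than the other Olig, each in 4 of 4 mice, and 0.28 ± 0.27 more of the myelin genes, in 3 of 4 mice. Gpr17 and Pdgfra met in 10 Olig where the product gives 1.34, and Gpr17 and Fyn in 23 where it gives 12.1. Olig with Enpp6 differed from the other Olig by -0.073 ± 0.16 for the commitment genes and -0.32 ± 0.31 for the precursor genes, each higher in 1 of 4 mice, and had 0.12 ± 0.076 more myelin in 4 of 4 mice. Olig with Fyn had 0.38 ± 0.20 more of the commitment genes, again in 4 of 4 mice. Only 2 of the 164 with Enpp6 also held Bmp4, Gpr17 or Neu4. Of the 113 Olig with one of these 3 genes and no Enpp6, 12 were among the tenth of cells with the highest doublet scores, 9 of them in mouse 4, as were 209 of the 4289 Olig with neither.

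Outside the lineage, Pdgfra was found in vascular leptomeningeal cells (VLMC) at 715, 362, 202 and 0 CPM in mice 3, 4, 30 and 34, on 29 UMIs from 6, 12, 44 and 6 cells. Of these VLMC, 83.3%, 58.3%, 20.5% and 33.3% were among the tenth of all cells with the highest doublet scores, and the part of doublets was not tested. Cspg4 was found in the endothelial label at 63.4, 95.3, 79.7 and 85.0 CPM. That label also carried mural cell markers (Rgs5, Pdgfrb, Kcnj8, Vtn, Acta2 and Higd1b) at 3977 CPM in sum, beside 39.9 to 1550.2 CPM in the other 8 types, and the part of mural cells was not tested. Pdgfra is a known marker of VLMC, and NG2 of pericytes. For Itpr2, each neighbour in the order OPC (146 ± 4.8 CPM), microglia (129 ± 65.8), endothelial cells (107 ± 31.3) and astrocytes (75.4 ± 14.3) overlapped with the next, while astrocytes were below OPC in every mouse. Fyn stood at 129 ± 7.8 CPM in astrocytes, above Olig in every mouse. Bcas1 was present in every type, at 104.6 ± 15.1 CPM in ependymal cells and up to 184 ± 62.0 CPM in microglia. Gpr17 (at most 23.3 CPM, in microglia), Neu4, Bmp4 and Enpp6 were low in astrocytes, tanycytes, ependymal cells, endothelial cells and microglia, and neighbouring levels overlapped there.

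**Figure D4:**
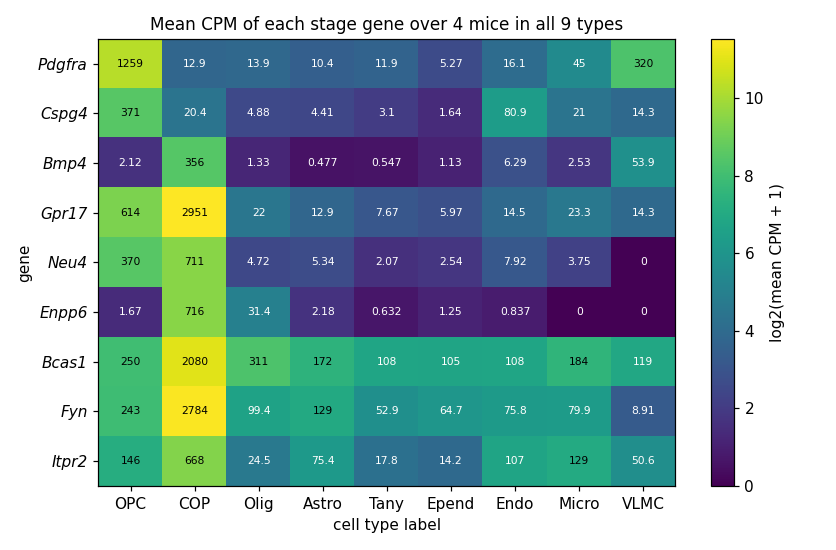
Mean CPM over 4 mice of each of the 9 genes (rows) in all 9 cell type labels (columns); colour gives log2 of the mean CPM plus 1 and the numbers give the mean CPM. Pdgfra peaks in OPC with a lesser value of 320 in VLMC, Cspg4 has 80.9 in Endo, and the other 7 genes peak in COP.

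The same steps were read in longer lists of the lineage that leave out the 9 genes, against the shares of all genes called (10.2% higher and 13.7% lower in COP than in OPC, 13.5% higher and 13.1% lower in Olig than in COP). Of 15 precursor genes, all tested, 10 were called lower and 2 higher in COP than in OPC (median log2 fold change -1.70 against 0.01 over all genes), and 11 were called lower from COP to Olig (median -2.17). C1ql1, a secreted protein gene of precursors, fell by 2.61 on the log2 scale and Cntn1, an adhesion gene, by 2.59. Tnr and Sox6 were the 2 that rose in COP, by 2.07 ± 0.087 and 1.06 ± 0.12. Both then fell in Olig, as did Vcan, Tnr from 2209 ± 212 to 15.6 ± 3.3 CPM. Of 14 commitment genes tested, 12 were called higher and 1 (Sox11, -2.04) lower in COP than in OPC, and 13 were called lower and none higher in Olig than in COP, with medians of 2.49 and -3.31. Pik3r3, a PI3-kinase subunit, rose by 5.38 ± 0.19, Cnksr3 by 3.67 ± 0.30 and Sirt2, a deacetylase of myelinating cells, by 3.77 ± 0.092, and Sox4, Vcan (in both lists) and Mycl fell in Olig by 5.81, 5.70 and 5.48 on the log2 scale. Of 17 myelin genes tested, 10 were called higher in COP than in OPC and 13 higher in Olig than in COP, none lower. Mag, Cldn11 and Mog had the largest rises of the first step (6.16, 5.97 and 5.47), and Ermn, Mal and Hapln2 those of the second (6.71, 6.2 and 6.23). By the adjusted p alone, 16 of the 17 were higher in Olig than in COP, so the 2 groups are not genes of separate steps. The 6 cycling markers summed to 102 ± 61.4 CPM in OPC and 5.36 ± 4.4 CPM in COP; Top2a was at 0 UMIs in COP, and Cdk1 and Ccnb1 were at 0 UMIs in OPC, COP and Olig alike.

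The genes that act with the 9 showed mixed courses, and the counts from short lists stand beside 10.2% of all genes called higher and 13.7% called lower in COP than in OPC. Among 3 tested partners of PDGFRA and NG2, Pdgfa, the ligand gene, rose in COP by 2.19 ± 0.24 from 25.2 to 114 CPM (adjusted p = 9.02e-12), while its receptor gene fell, and Itgb1 rose by 1.07 ± 0.15. Of 8 tested BMP pathway genes, 1 was called higher in COP than in OPC, a share near that of all genes, and 3 were called lower. The targets Id2 (-2.08 ± 0.16, 336 to 74.6 CPM) and Id3 (-1.38 ± 0.25) and the receptor Bmpr1a (-1.09 ± 0.29) fell, and the inhibitor Smad7 rose by 2.12 ± 0.44, in the cells where Bmp4 was highest. Of 6 tested genes that act with GPR17, none was called higher in COP and 2 were called lower, Id2 and Rapgef3 (-2.62 ± 0.42), a cAMP-activated exchange factor.

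Around Fyn, 5 of 9 tested genes were called higher and 2 lower in COP than in OPC, against 10.2% and 13.7% of all genes. Its inhibitor Csk rose by 1.5 ± 0.25, its substrate Arhgap5 by 2.34 ± 0.16 and Mapt by 2.07 ± 0.11, whereas Src (-2.23 ± 0.26) and the adhesion gene Cntn1 fell. From COP to Olig, Csk (-2.42 ± 0.22), Yes1, Itgb1 and Arhgap5 were called lower and none of the 9 was called higher, against 13.1% and 13.5% of all genes; Ptpra (0.94), Cntn1 (0.29) and Mapt (0.23) passed the adjusted p on the higher side, short of the fold limit. Around Itpr2, Itpr1 was called lower in COP than in OPC (-2.13 ± 0.44, 41.1 to 7.6 CPM) while Itpr2 rose, and Orai1 was called lower (-1.05 ± 0.42, adjusted p = 0.041). Among 11 tested enzymes and carriers of choline and sialic acid, Slc44a1, a choline transporter, was the single one called higher in COP (3.71 ± 0.12, 91.7 to 1166 CPM), a share near the 10.2% of all genes, and St8sia1, St8sia3, St3gal2 and Chkb were called lower.

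Over 32 sums of 8 types in 4 mice, the levels of the 9 genes were alike to different degrees (Pearson correlation of log2 CPM, given as a description, since the sums share libraries and the type labels). Gpr17 was most like Neu4 (0.94), Enpp6 most like Bcas1 (0.94) and Fyn most like Bcas1 (0.91), while Pdgfra was like Cspg4 at 0.73 and unlike Enpp6 at -0.17. Among other genes, the most alike were Emid1 for Pdgfra (0.93), Cav1 for Cspg4 (0.87), Pycr1 for Bmp4 (0.92), Opcml for Gpr17 (0.96) and Acan for Neu4 (0.94). Acan, however, stood at 30.7 CPM in OPC and 18.8 CPM in COP, the reverse of the order of Neu4. Rhbdl2 was the most alike for Enpp6 (0.98), Nfasc for Bcas1 (0.96), Matn1 for Fyn (0.95) and Mgll for Itpr2 (0.89). Next in order were Ppp1r14b and Chrna4 for Pdgfra, Igfbp3 and Calcrl for Cspg4, Matn1 and Polr1d for Bmp4, Fbn2 and Slc5a7 for Gpr17, and 5730559C18Rik and Dscam for Neu4. Sirt2 and 9530059O14Rik were shared by Enpp6 and Bcas1, Ckap2 and Tns3 followed for Fyn, and Tnfrsf21 and Large for Itpr2.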

How the data were processed

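Hypothalamic cells of 4 male ob/ob mice given FGF1 R50E were analysed. According to the submitters' processing notes, Cell Ranger 1.2 and Seurat were used by the authors with mouse GRCm38 (mm10), and the type labels were assigned by the authors over 16 libraries. The other 12 libraries (50172 cells) were not used here. The authors deposited raw UMI counts per cell, a percent of mitochondrial UMIs and a doublet score, which is a fraction between 0 and 1. A deposited normalized matrix was not used. No cell was removed; doublets were treated only as an alternative that leaves out scores over 0.128, the top 10% of cells.

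The UMI counts were summed per mouse and type, and CPM was computed from the sums. Genes passing filterByExpr (7108 of 16411) were tested with edgeR 4.0.16 in R 4.3.3 (TMM factors, quasi-likelihood F test, mouse as block, 1 fit over OPC, COP and Olig) with Benjamini-Hochberg adjustment. The types come from the same 4 animals, which is where the pairing comes from. Sums of the same mouse deviated from the type means with correlations of 0.0700 to 0.188, and those of different mice with -0.175 to 0.0959. The ranges overlap, and deviations from a mean of only 4 mice by themselves lower the values between different mice. The p-values measure the spread between these 4 mice after it was moderated over all tested genes, with 1 estimate for OPC, COP and Olig. They do not rest on a gene's own spread alone. Sums held 208955 to 2319177 UMIs, and intervals are 95% exact ones for counting error only. Thinning gave the expected share of cells with a UMI when each cell is reduced to 500 UMIs without replacement. On simulated counts for COP against OPC, 43% of genes changed 2-fold and 95% of those changed 4-fold were called, with 1.43% of calls false. A 2-fold change lies at the fold limit of a call itself, and 65% of the genes changed 2-fold passed the adjusted p. The 9 genes and the gene lists were chosen with earlier results of these data known. All 9 genes are named, with the 3 largest changes per lineage list in each of COP against OPC and Olig against COP, and the 3 most alike genes each (1 gene that the rule names is not reported here); further list and partner genes were chosen after their values were seen. Alternatives changed the scaling, filter, block, tool (DESeq2 1.42.0), types fitted, depth, doublets and mice.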

Additional observations from a re-analysis of the deposited data

Results flagged for a closer look

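Of 73 groups of 4 mice, 7 had a highest mouse that lay far from the other mice by Dixon's test, which flags about 1 in 20 groups by chance. In COP, Enpp6 stood at 825 CPM in mouse 3, with the next mouse at 684 CPM. Bmp4 in OPC was 8.49 CPM in mouse 30 and 0 in the other mice, on 2 UMIs. In microglia, Bmp4 was 10.1 CPM in mouse 30 (1 UMI), Neu4 was 15.0 CPM in mouse 3 (2 UMIs), and both were 0 in the other mice. These 3 flags follow from any UMI in 1 mouse with none in the others, and the values are below those of 3 UMIs. Gpr17 in microglia was 67.0 CPM in mouse 4 (3 UMIs from 34 cells) against 10.1 CPM in the next mouse, and Bcas1 was 277 CPM in mouse 3 against 156 CPM in the next. Fyn in ependymal cells was 113 CPM in mouse 4 against 53.4 CPM in the next mouse. The cause of these gaps was not tested.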

How the results depend on the processing

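Of the 27 log2 fold changes of the 9 genes, 23 kept their direction and their side of the limits in every alternative that was run, as did 278 of 293 single alternatives. In the fit of only the 2 types compared, Pdgfra and Cspg4 in Olig against COP and Bmp4 and Enpp6 in Olig against OPC did not pass the filter and were not tested. Neu4 between OPC and COP ranged from 0.92 to 1.13 and was under the limit in 6 alternatives, and Fyn in Olig against OPC was past it in 3. Pdgfra in Olig against COP, not called in any alternative (adjusted p 0.152 to 0.875), turned to -0.11 without scaling beyond library totals, was 0.98 with sums thinned to the smallest total and, with 1 mouse left out, ranged from -0.23 without mouse 4 to 0.62 without mouse 3. Bmp4 in Olig against OPC (adjusted p 0.108 to 0.988) turned to -0.26 without that scaling and to -0.35 without the top doublet scores, and, with 1 mouse left out, ranged from -0.91 without mouse 4 to 3.43 without mouse 30; the cause was not tested. The number of the 9 called higher in Olig than in OPC was 2 by the adjusted p alone and 0 in that fit of 2 types. By the adjusted p alone, 2838, 3691 and 3717 of all genes passed in COP against OPC, Olig against COP and Olig against OPC, 1090 were called in the first with sums thinned to the smallest total, and 3090 in the last without a filter on low counts. The share of COP with an early and a late gene was 1.82% with Pdgfra as the only early gene and 0.921% at 500 UMIs, and its ratio to the product of the shares was 1.00 with Bcas1 and Fyn added to the late set.

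Leaving out each mouse in turn gave 6 to 7 of the 9 called higher and 2 to 2 lower in COP against OPC, 0 to 0 and 8 to 8 in Olig against COP, and 1 to 1 and 5 to 6 in Olig against OPC. Of all genes it gave 1333 to 1779, 1554 to 1997 and 1563 to 2043 calls, a share with both gene sets of 4.59% to 5.55% and a ratio of 1.09 to 1.17. Without the replicate block, that is without the pairing by mouse, 1671, 1888 and 1935 genes were called against 1697, 1896 and 1925 with it, and no call of the 9 genes changed. Shares of cells depend on depth: 23 of 27 moved by more than their SD when cells were thinned to 500 UMIs.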
